A study of Gallus gallus with 144 samples.

Results

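CUBN and LRP2 encode cubilin and megalin, the large receptors that take up filtered proteins and vitamins at the apical surface of kidney proximal tubule cells. Both are named in a list of capped RNA start sites from 6 chicken tissues, where they account for 2 of 10437 genes with a promoter label and for 3 of 24969 promoter peaks. They were taken by gene name among the peaks that the authors labelled as promoters, and every unlabelled peak up to 100 kb downstream was then collected on each strand. CAGE reads the first bases behind the cap of RNA molecules and so marks where capped RNA molecules begin. Whether transcription started at each unlabelled peak inside a gene was not tested. The libraries came from 24 chickens, 12 labelled fast growing and 12 labelled slow growing, and each bird gave brain, breast, heart, kidney, leg and liver, so that there were 144 libraries in 12 groups of 12. The sources used here do not give breed, age, sex or any treatment.

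Cubilin has no membrane-spanning segment of its own. In mammals it is held at the membrane by amnionless, the product of AMN, and enters the cell together with megalin, a member of the LDL receptor family that crosses the membrane and recruits the clathrin machinery through its short cytoplasmic tail. Their known cargo includes albumin, vitamin D bound to its carrier, retinol bound to its carrier and vitamin B12 bound to its carriers. Cubilin was first known as the gut receptor for the complex of intrinsic factor and vitamin B12. Outside the kidney, both receptors have been described in the absorptive epithelium of the yolk sac, and megalin in the lining of the brain ventricles of mammals.

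The list held 153662 peaks on the GRCg6a build, pooled over all libraries, and gave no height for a peak and no value for a library. Depth was therefore unknown and no value had replicates. Kidney could not be compared with other tissues, nor fast with slow growth, and the label as kidney receptors could not be checked against these birds: a peak may come from any of the 6 tissues. What can be described is where the start sites of CUBN and LRP2 lay, how wide they were, and how the neighbouring peaks were spread over the strands. No test was run, and comparisons with other genes are descriptions of this 1 list.

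Each receptor had 1 very wide promoter peak, and LRP2 had a less wide further one inside its first 20 kb. The promoter peak of CUBN lay on chromosome 2 from 19855291 to 19855452 on the plus strand and was 162 bp wide. The first promoter peak of LRP2 lay on chromosome 7 from 18736575 to 18736949 on the plus strand and was 375 bp wide. The other LRP2 promoter peak, from 18755894 to 18755923 on the same strand, was 30 bp wide. For comparison, the median promoter peak was 9 bp wide and the median unlabelled peak 7 bp.

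The first LRP2 peak ranked 29 in width among the 24969 promoter peaks, and 0.116% of them were at least as wide. The CUBN peak ranked 171, with 0.697% at least as wide, and the downstream LRP2 peak ranked 1701, with 7.39% at least as wide. A promoter peak over 100 bp was found in 283 of the 10430 genes whose promoter peaks all lay on 1 sequence and strand (2.71%), and CUBN and LRP2 were both among these 283. Their median width was 179 bp at the widest peak, so CUBN lay a little below the middle of the wide promoters and LRP2 far above it. A similar share was found among long genes. Of the 765 labelled genes that are at least 100 kb long in the RefSeq gene table, both receptors included, 20 had a promoter peak over 100 bp (2.61%). Among these 765 long genes the LRP2 peak ranked 2 and the CUBN peak 12.

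**Figure D1:**
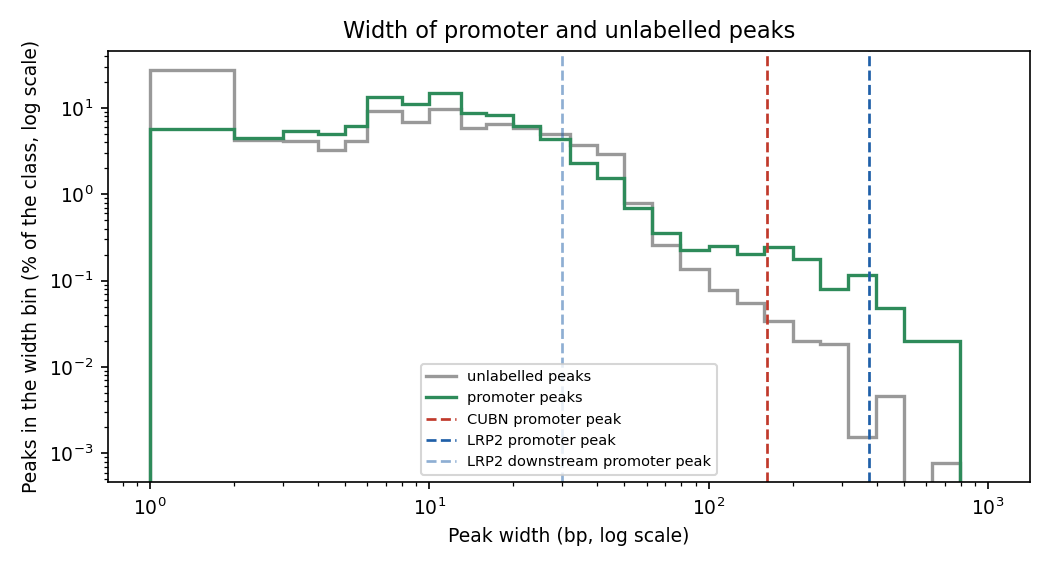
Width of promoter peaks (green) and unlabelled peaks (grey), as the percentage of each class per width bin, with both axes on log scales. Dashed lines mark the CUBN peak at 162 bp and the LRP2 peaks at 375 and 30 bp. The CUBN peak and the wider LRP2 peak lie in the sparse right tail beyond 100 bp.

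The list also names a representative position inside each peak, a single base whose meaning was read from the values. In CUBN it was position 19855417, 126 bases past the 5′ edge, or 78.3% of the way along the peak. In the wide LRP2 peak it was position 18736717, 142 bases past the 5′ edge, or 38.0% of the way along. The 290 promoter peaks over 100 bp had a median of 48.6% and quartiles of 28.7% and 66.0%. The CUBN position thus lay nearer the 3′ edge than the upper quartile, and the LRP2 position lay between the quartiles. In the downstream LRP2 peak the representative position was the first base, 18755894. Of 1846 promoter peaks at least 30 bp wide, 49 (2.65%) had their representative position at the 5′ edge. The cut-off of 30 bp was the width of this LRP2 peak, and unlabelled peaks were not counted. Some unlabelled peaks this wide near LRP2 also had theirs at the 5′ edge, such as one of 37 bp 119 kb past its start, and others did not.

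CUBN was a gene with a single promoter peak, as were 3758 of the 10430 genes (36%). Among these 3758 genes, 213 had a peak over 100 bp (5.67%). Single peaks were common among wide promoters, since 213 of the 283 genes with a promoter peak over 100 bp (75.3%) had no other promoter peak. LRP2 had 2 promoter peaks, as did 2873 genes (27.5%), but its peaks were unusually far apart. Their representative positions were 19177 bp from each other. Of the 2873 genes with 2 promoter peaks, 28 had them over 10 kb apart (0.975%). Among all 10430 genes 240 had promoter peaks spread over more than 10 kb (2.3%), and among the 765 long genes 88 did (11.5%). Within those 240 genes the LRP2 distance was not large, since 70.0% of them had a spread at least as great and the median spread was 29901 bp. The width of its first peak was the greatest of the 240. A promoter peak over 100 bp was found in 10 of these 240 genes, LRP2 among them, where 2.71% of all genes had one. The 10 genes with both traits were 0.0959% of all genes. Both cut-offs were chosen after the data were seen.

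The RefSeq gene table of the GRCg7b assembly gives 11 messenger RNA models for LRP2 and 4 for CUBN, against a median of 2 over symbol-bearing protein-coding genes. At least 11 models were given for 9.64% of these genes and at least 4 for 37.4%. Apart from these model counts, the table was used for names, gene type, chromosome, gene order and length class only. Its assembly is not that of the peaks. The files used here hold no exon positions on GRCg6a. Whether the downstream LRP2 promoter begins a shorter mRNA was not tested.

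For both genes, the nearest peak downstream on the own strand and upstream on the opposite strand lay farther off than in the median of all genes. Within 25 kb past its first promoter peak, LRP2 still had 4 unlabelled own-strand peaks, against a median of 2 over all genes and 1 over long genes. Distances here and below run between representative positions, along the strand of the gene, from its first promoter peak. The nearest own-strand peak downstream of the CUBN promoter was 19.1 kb away, an unlabelled peak of 3 bp. That of LRP2 was 4.45 kb away, an unlabelled peak of 11 bp. The median over all genes was 47 bp, which counts further promoter peaks of the same gene. Among the 213 genes with a single promoter peak over 100 bp, the median was 3891 bp, and 20.2% had a gap at least as long as that of CUBN. Among the 283 genes with a wide promoter peak, 36.4% had a gap at least as long as that of LRP2. Among all genes 8.33% and 20.3% reached the gaps of CUBN and LRP2. Among all 3758 genes with a single promoter peak, whatever its width, 22.8% had a gap at least as long as that of CUBN, and 54.8% one at least as long as that of LRP2.

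Upstream, neither gene had a peak on the opposite strand close by. The nearest one lay 33.1 kb before CUBN and 53.6 kb before LRP2. By contrast, 2676 of the 10430 genes (25.7%) had an opposite-strand peak within 1000 bp upstream, and the median distance was 6436 bp. A distance at least as long as that of CUBN was found for 10.2% of genes, and 4.13% had one at least as long as that of LRP2. Among long genes these shares were 17.0% and 6.54%. The upstream peak of LRP2 was the nearest promoter peak of BBS5, a Bardet-Biedl syndrome gene of the cilium, which is read in the opposite direction. That of CUBN was an unlabelled peak of 13 bp. On the own strand, the nearest upstream peak was an unlabelled one of 11 bp at 8.85 kb for CUBN and an unlabelled one of 18 bp at 20.5 kb for LRP2. These distances were ordinary, with a median of 9285 bp over all genes and 51.4% and 25.4% of genes at least as far.

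**Figure D2:**
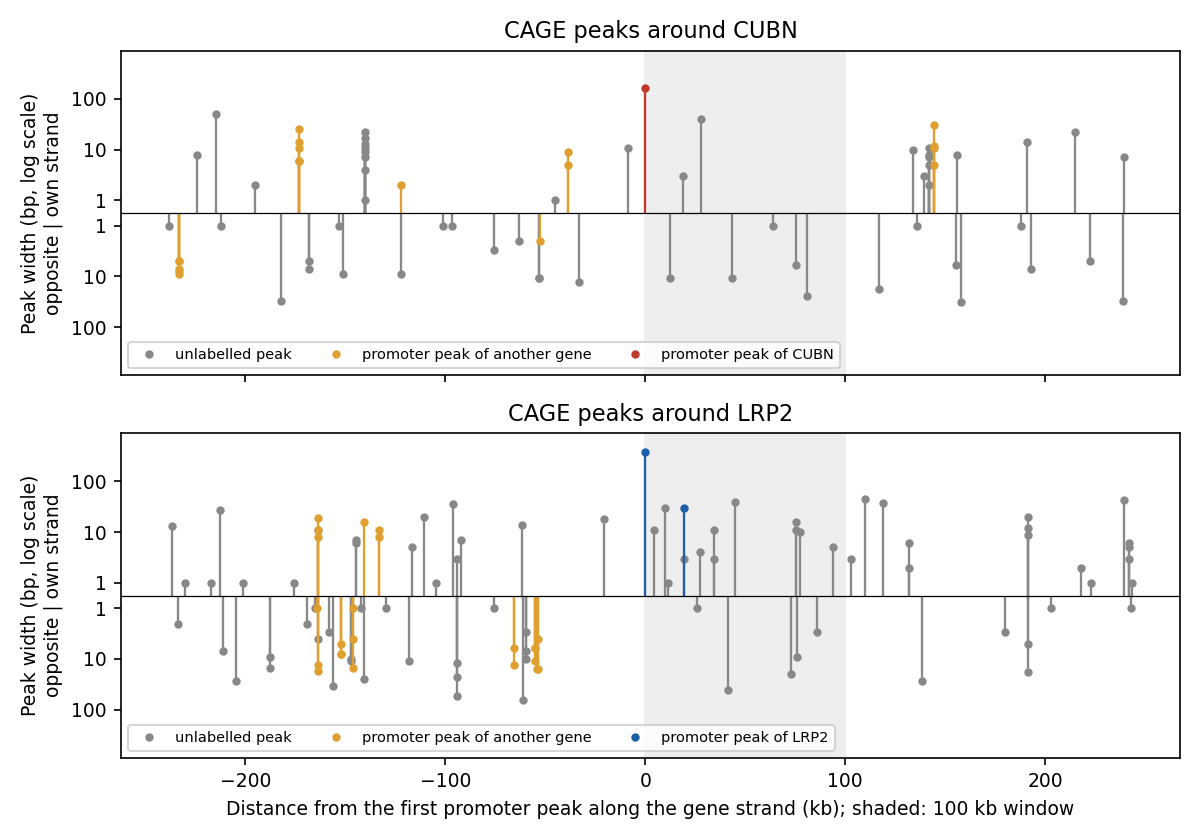
Peaks within 250 kb of the first promoter peak of CUBN (top) and LRP2 (bottom), plotted by distance along the strand of the gene in kb and by width in bp on a log scale, with own-strand peaks pointing up and opposite-strand peaks pointing down. Grey marks unlabelled peaks, yellow promoter peaks of other genes, and red or blue the receptor itself. The shaded 100 kb windows hold no promoter of another gene.

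In the 100 kb downstream of the first promoter peak, LRP2 had many unlabelled peaks on its own strand and CUBN had few. LRP2 had 12 on its own strand and 5 on the opposite strand. CUBN had 2 on its own strand and 5 on the opposite strand. No promoter peak of another gene lay in either window on either strand, and both genes are at least 100 kb long in the RefSeq table. The own-strand share was 70.6% of 17 peaks for LRP2 (exact Clopper-Pearson 95% interval 44.0 to 89.7) and 28.6% of 7 peaks for CUBN (3.67 to 71.0). These intervals overlap. They cover counting over peaks only, and neighbouring peaks are not independent.

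Against all 10430 genes the LRP2 count was high without being extreme. The median gene had 8 own-strand and 8 opposite-strand peaks in this window, 28.7% had at least 12 on the own strand, and 47.2% had more on the own than on the opposite strand. Among the 765 long genes the medians were 4 and 6, and 31.6% had more on the own strand. At least 12 own-strand peaks were found in 5.36% of long genes. LRP2 had an excess of 7 own-strand over opposite-strand peaks, and 6.01% of long genes had one at least as large. Among the 283 genes with a promoter peak over 100 bp these shares were higher, at 40.6% and 21.9%. Among the 240 genes with promoters over 10 kb apart they were 17.5% and 12.1%. CUBN lay on the low side. At most 2 own-strand peaks were found in 9.84% of all genes and in 28.9% of long genes. Fewer peaks on the own than on the opposite strand were found in 45.7% of all genes and in 61.2% of long genes, which puts CUBN with the majority of its length class. Its lean to the opposite strand was absent in other windows. It had 1 and 1 peaks within 20 kb, 2 and 2 within 50 kb, and 11 and 11 within 200 kb. LRP2 had more on its own strand in each of these windows.

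**Figure D3:**
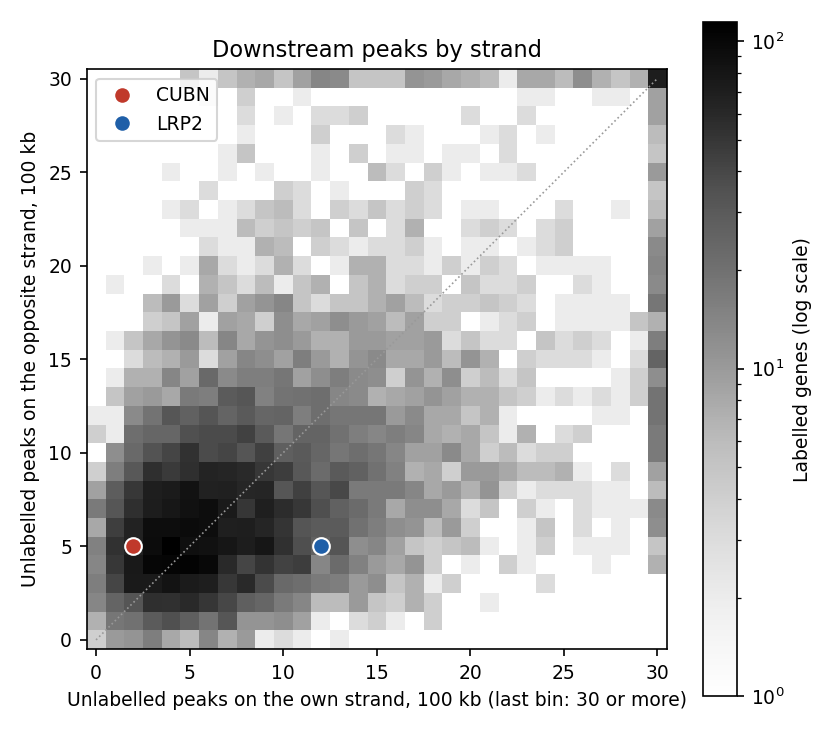
Unlabelled peaks within 100 kb downstream on the own strand (horizontal) and the opposite strand (vertical) for 10430 labelled genes, with grey shade for the number of genes on a log scale, counts of 30 or more in the last bin, and a dotted line of equal counts. LRP2 lies below the line at 12 and 5, and CUBN above it at 2 and 5.

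The own-strand peaks of LRP2 fell into 3 stretches. The first held 3 peaks between the promoters, at 4.45 kb (11 bp wide), 9.99 kb (30 bp) and 11.2 kb (1 bp). Next came a peak of 3 bp at 19247 bp, just past the downstream promoter at 19177 bp, and then peaks at 27.4 kb (4 bp), 34.2 kb (11 bp), 34.3 kb (3 bp) and 45.0 kb (39 bp). No own-strand peak followed until 75.6 kb, where 2 peaks of 11 and 16 bp lay together, followed by single peaks of 10 bp at 77.6 kb and 5 bp at 94.1 kb. In successive stretches of 25 kb, LRP2 had 4, 4, 0 and 4 own-strand peaks, where the median long gene had 1 in each. Its opposite-strand peaks numbered 0, 2, 1 and 2 in the same stretches, and the first of them, of 1 bp, lay 26.0 kb in. The downstream promoter of LRP2, at 19177 bp, therefore lay before the first opposite-strand peak. In the first 25 kb the median long gene had only 1 opposite-strand peak. How many genes have as long a stretch without one was not counted. The 12 own-strand peaks had a median width of 10.5 bp and a maximum of 39 bp, so that none came near the width of the first promoter peak.

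CUBN showed a single pair of own-strand peaks, both in the first 50 kb. They were a peak of 3 bp at 19.1 kb and one of 41 bp at 27.7 kb, and no own-strand peak followed before 134 kb. The wider of them was wider than the downstream promoter peak of LRP2 but carried no promoter label. On the opposite strand CUBN had peaks at 12.4 kb (11 bp), 43.4 kb (11 bp), 64.1 kb (1 bp), 75.3 kb (6 bp) and 80.9 kb (24 bp). In stretches of 25 kb this was 1, 1, 1 and 2, close to the median long gene with 1 in each. The opposite-strand peaks of LRP2 were as many, with a median width of 9 bp against 11 bp in CUBN. They lay at 26.0 kb (1 bp), 41.2 kb (41 bp), 73.0 kb (20 bp), 75.8 kb (9 bp) and 85.8 kb (3 bp).

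**Figure D4:**
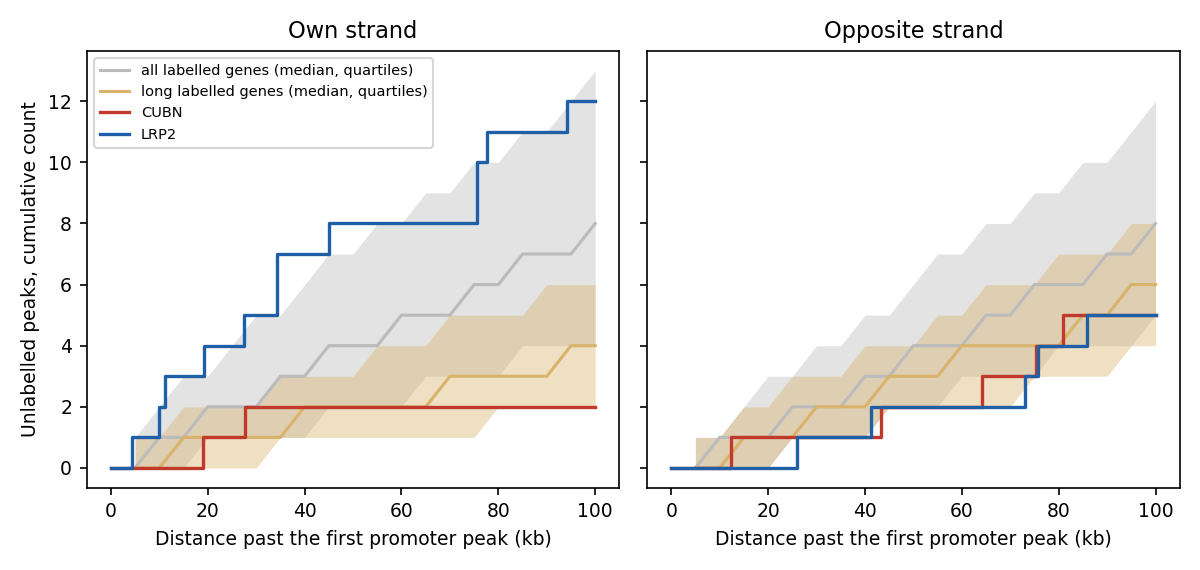
Cumulative count of unlabelled peaks with distance past the first promoter peak, on the own strand (left) and the opposite strand (right), for CUBN (red) and LRP2 (blue). Lines and bands give the median and quartiles of all labelled genes (grey) and of labelled genes at least 100 kb long (yellow). On the own strand LRP2 climbs to 12 at 100 kb, above the long genes' upper quartile of 6 and below the 13 of all genes. CUBN stays at 2 after 27.7 kb, while on the opposite strand both reach 5.

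The surroundings of the receptors differed in what followed them. Past CUBN, the next promoter on the same strand was that of RSU1, a Ras suppressor gene, with 4 promoter peaks from 144 kb onwards. A tight group of 5 unlabelled own-strand peaks lay shortly before it, from 141725 to 141788 bp past the CUBN start, and these peaks were 2 to 11 bp wide. Upstream of CUBN lay TRDMT1, a tRNA methyltransferase gene on the same strand with 2 promoter peaks at 38.6 kb, and VIM, the vimentin gene on the opposite strand with 1 promoter peak at 52.6 kb. Past LRP2, no labelled promoter was found on either strand within 250 kb. By gene order in the RefSeq table the next named protein-coding genes are ABCB11, the bile salt export pump of liver, G6PC2 and SPC25. None of these had a promoter label under these symbols, where 57.0% of all symbol-bearing protein-coding genes had one. Before LRP2, BBS5 and KLHL41 had labels, but several named genes next before them in that order had none under these symbols. Labelled promoters did lie farther off, from 133 kb to 164 kb before LRP2. They were those of KLHL23, SSB and METTL5 and of genes named only by Ensembl identifier.

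Likeness of other genes to each receptor was measured over 3 counts of the pooled list, on a log2 scale: promoter peaks, own-strand and opposite-strand unlabelled peaks. For CUBN 21 other genes had the same 3 counts (0.201%), the first by name being AQP3, CMTM6, CNTN3, DBF4 and E2F3. Of the 21, 1 had a promoter peak over 100 bp, against 5.67% of all genes with a single promoter peak. AQP3 is a water channel of the kidney collecting duct in mammals, and its promoter peak was 6 bp wide. For LRP2 4 genes had the same 3 counts (0.0384%), among them SLC20A2, a phosphate transporter, and WDR20. Their promoter peaks were at most 31 bp apart and at most 33 bp wide, so none shared the wide first peak or the distant other promoter of LRP2. Both traits were rare anyway. A promoter peak over 100 bp was found in 2.71% of all genes, and 0.975% of genes with 2 promoter peaks had them over 10 kb apart. Next came IST1, with 2 promoter peaks, 13 own-strand and 5 opposite-strand peaks.

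Proteins that work with the receptors had promoter peaks of about the width found over all genes. Of 17 measurable uptake partners, that is, protein-coding genes whose symbol is in the RefSeq table, 12 had a promoter label (70.6%, exact interval 44.0 to 89.7), against 57.0% of all 14357 symbol-bearing protein-coding genes. That 57.0%, used for all lists below, counts 8184 genes whose symbol matched a label exactly, where 10437 gene names had a label. Older symbols were tried for the lists but not for all genes, so the 57.0% may be too low. AMN, which anchors cubilin, had 1 promoter peak of 20 bp, and LRPAP1, the chaperone of the LDL receptor family, had 1 of 13 bp. DAB2, a clathrin adaptor that binds the megalin tail, had 1 of 6 bp, and MYO6, a motor of endocytic vesicles, had 1 of 1 bp. CLCN5, the endosomal chloride exchanger lost in Dent disease in humans, had 6 promoter peaks spread over 13033 bp, the widest of them 22 bp. CLCN5 was the only 1 of the 12 labelled partners with promoters over 10 kb apart, against 2.3% of all genes. The widest promoter peaks of the list were those of AP2M1, a clathrin adaptor subunit, at 50 bp and RAB5A, an early endosome GTPase, at 37 bp. None of the 12 had a promoter peak over 100 bp, against 2.71% of all genes. Their median widest peak was 13 bp, against 15 bp for all genes. GIPC1, OCRL, APPL1 and RAB38 were among the partners with no label under these symbols, which does not show that they had no peak.

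AMN and DAB2 also had more unlabelled peaks on their own strand than on the other, with 9 against 4 and 8 against 3 in 100 kb. LRPAP1 had 9 against 11. Over the 12 labelled partners, 7 had more on the own strand and 4 fewer, with medians of 8.5 and 7. Over all genes 47.2% had more on the own strand and 45.7% fewer.

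In a list built around the LDL receptor family, to which LRP2 belongs, 9 of 13 measurable genes were labelled (69.2%, exact interval 38.6 to 90.9, against 57.0% of all genes), LRP2 itself not counted. Of these 9, 1 had a promoter peak over 100 bp, against 2.71% of all genes. This was VLDLR, the receptor through which chicken oocytes take up yolk precursors. It had a single promoter peak of 301 bp, with 4 unlabelled peaks on each strand downstream. The other 8 had widest peaks from 13 bp in LRP1B and LRP5 to 56 bp in LDLRAD4, with LRP3 next at 25 bp. The median of the 9 was 21 bp. None of the 9 had promoters over 10 kb apart, against 2.3% of all genes. The greatest spread was 3157 bp in LDLRAD4, and the next was 63 bp in SORL1. LRP1B, a giant receptor of similar domain build, had 4 promoter peaks within 62 bp and 2 own-strand against 10 opposite-strand peaks downstream. LRP1, LRP6, LRP11 and LDLRAD3 had no label under these symbols. Among genes with CUB domains, the repeated unit that gives cubilin its name, 15 of 21 were labelled (71.4%, exact interval 47.8 to 88.7, against 57.0% of all genes). Their widest peaks had a median of 23 bp, against 15 bp for all genes, and reached 60 bp in NRP2.

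**Figure D5:**
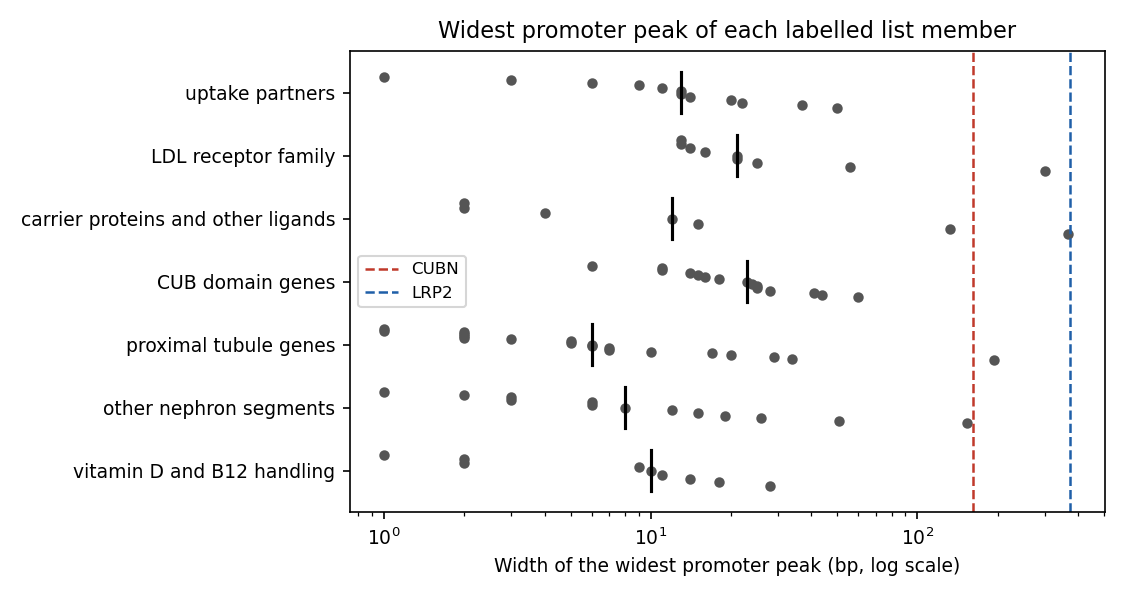
Width of the widest promoter peak, in bp on a log scale, for each labelled and measurable member of 7 gene lists, with points spread vertically for legibility and a black bar at the list's median. Dashed lines mark CUBN at 162 bp and LRP2 at 375 bp. VLDLR at 301 bp, LPL at 366 bp and SLC3A1 at 194 bp are the list members wider than CUBN, and none is wider than LRP2.

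Most other proximal tubule genes that could be measured were labelled. Of 21 measurable genes 19 had a label (90.5%, exact interval 69.6 to 98.8, against 57.0% of all genes), the exceptions being SLC4A4 and FBP1. Here and for the other lists, the interval covers counting over genes only. The listed genes were chosen and not drawn at random, so it is no test against all genes. As said above, the 57.0% may also be too low. The other 7 of the 28 listed genes were not in the RefSeq table under these symbols and are not counted. Of these, PDZK1 did carry a promoter label, with 1 peak of 6 bp. Over the 19 counted genes with a label, the median widest peak was 6 bp, below the 15 bp of all genes. Of the 19, 1 gene passed 100 bp, against 2.71% of all genes. This was SLC3A1, the amino acid transporter subunit altered in cystinuria in humans, with 1 promoter peak of 194 bp. SLC34A1, a phosphate transporter, had 1 of 2 bp, and SLC7A9, the partner of SLC3A1, had 1 of 1 bp. HNF4A, a transcription factor of proximal tubule and liver, had 2 promoter peaks, the wider of them 7 bp. In the list of other nephron segments 13 of 18 genes were labelled (72.2%, exact interval 46.5 to 90.3, against 57.0% of all genes). Of these 13, 1 had a promoter peak over 100 bp, against 2.71% of all genes. This was CLDN16, a tight junction protein of the thick ascending limb, at 154 bp. UMOD, the most abundant urinary protein in mammals, had 1 promoter peak of 6 bp. Many of these genes are also expressed outside the kidney, so their labels do not show that a peak came from kidney.

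Among cargo proteins, 7 of 16 measurable genes were labelled (43.8%, exact interval 19.8 to 70.1, against 57.0% of all genes). GC, the vitamin D carrier, had 1 promoter peak of 2 bp, and TF, transferrin, had 1 of 2 bp. Downstream, TF had 29 own-strand against 4 opposite-strand peaks, and GC had 14 against 15. Over the 7 labelled genes, 4 had more on the own strand and 2 fewer, with medians of 14 and 8. Over all genes 47.2% had more on the own strand and 45.7% fewer. Promoter peaks over 100 bp were found in 2 of the 7 labelled genes, against 2.71% of all genes. They were those of LPL, lipoprotein lipase, at 366 bp and FABP1, the liver fatty acid-binding protein, at 132 bp. ALB, RBP4, TTR and TCN2, the genes of albumin, the retinol carrier, transthyretin and transcobalamin, had no label under these symbols. In the handling of vitamins D and B12, 9 of 14 genes were labelled (64.3%, exact interval 35.1 to 87.2, against 57.0% of all genes). CYP24A1, which degrades active vitamin D in the tubule, had 1 promoter peak of 2 bp, and CD320, the cellular receptor of transcobalamin, had 2. VDR, the vitamin D receptor, had no label under this symbol. GC, TCN2, AMN, CYP24A1 and CYP27B1 stand in more than 1 list.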

How the data were processed

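Per the labels' protocols, capped RNA was captured and libraries with unique molecular identifiers were prepared by nAnT-iCAGE. STAR 2.7.9a and UMI-tools 1.1.4 were used on GRCg6a, per the submitters' processing notes. The sources used here do not give the peak caller's settings or how promoter labels were assigned. The deposited list holds positions, strand, label and gene name, and 2 columns that are 1 in every row. Starts, counted from 0 in the list, are printed 1-based.

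The members and gene lists were chosen with earlier results of these data known. Symbols were matched to the RefSeq table of GRCg7b. All 748 and 262 labelled genes compared on the sequences named chromosomes 2 and 7 lay there in that table too. Counts over genes exclude 7 genes whose labels fall on several sequences or strands. A window ran from the first promoter peak to 100 kb downstream, by representative position. The sets of long genes, wide promoters and distant promoters were chosen after the data were seen. Named genes were the members, list members, labelled neighbours within 250 kb and the 5 genes nearest in peak counts. Some list members are not reported here by name. The 3 next named genes after LRP2 were added after their values were seen. The counting step was tested on simulated data and recovered 500 of 500 planted counts. Each simulated gene had a single promoter peak, unlabelled peaks of a single base and no other gene nearby. Genes with several promoters, such as LRP2, were therefore not covered by it. Python 3.11.15, pandas 2.3.3 and scipy 1.17.1 were used. Tests between tissues and growth types need values per library and were not run.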

Additional observations from a re-analysis of the deposited data

How the results depend on the processing

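The promoter counts of CUBN and LRP2 were the same without peaks of 1 bp and with neighbours within 20 or 100 bp merged. The downstream counts followed the length of the window. With 20 kb, CUBN had 1 own-strand and 1 opposite-strand peak and LRP2 had 4 and 0. With 50 kb, the opposite-strand count was 2 for CUBN and 2 for LRP2, and the own-strand counts moved by no more than 1.5 times. With 200 kb, CUBN had 11 and 11 peaks and LRP2 had 20 and 9. The CUBN window of 200 kb takes in the RSU1 promoter. Starting 500 bp later or at the last promoter, ending at the next promoter on the strand, leaving out peaks of 1 bp, merging within 20 bp and, an alternative chosen after seeing the data, merging within 100 bp moved no downstream count by more than 1.5 times. Matching older symbols, also added later, left all 7 list counts as they were. Leaving out libraries was not possible because the list gives no value per library. No paired analysis was possible because no column belongs to a bird. Depth and peak height are unknown, so a missing peak or label does not show a silent start site.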

Other observations

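Beyond the 100 kb windows, unlabelled peaks gathered at a place far past LRP2 and at one far before CUBN. About 192 kb past the LRP2 start lay a group of peaks that pointed away from each other. It had 2 opposite-strand peaks of 5 and 18 bp, at 191551 and 191570 bp, followed by 3 own-strand peaks of 12, 20 and 9 bp at 191633, 191668 and 191695 bp. Upstream of CUBN, 8 unlabelled own-strand peaks of 1 to 22 bp lay together 140 kb before its start, between the labelled promoters of HACD1 and ST8SIA6. ST8SIA6, a sialyltransferase gene, had 1 promoter peak of 2 bp in the list. Neither group carried a gene name.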
